A study of Rattus norvegicus with 6 samples.

Results

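The 8 genes described here make, bind or break down hyaluronan, the sugar polymer of the matrix around the oocyte: Has1, Has2, Has3, Tnfaip6, Ptx3, Cd44, Hyal1 and Hyal2. They were chosen by symbol, each had 1 row, and they are 8 of the 17525 genes measured. The RNA came from primary granulosa cells of the ovaries of SD rats aged 21 days that had received PMSG, a gonadotropin that stimulates follicle growth, at 60 IU 48 h before the ovaries were taken. The cells were dispersed with enzyme and cultured, and poly(A) RNA was read as pairs of 150 bases. The titles name a group called ATR and a group called Control, with 3 libraries each, and all of them share the PMSG injection and the culture. The title of the series names atrazine, a herbicide, given over a long time. The meaning of ATR, the dose, the duration and what was exposed are not stated in the labels. Control libraries are not analysed here. Every value below is thus a level in ATR 1, ATR 2 or ATR 3, and none is an effect of an exposure. Whether each library is its own animal or culture is not stated, and p-values measure only the spread between these libraries, which may be technical.

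Hyaluronan is made at the plasma membrane by the synthases Has1, Has2 and Has3. Before ovulation, Has2 of cumulus cells, the granulosa cells next to the oocyte, makes most of it. Tnfaip6 (TSG-6) moves the heavy chains of the serum protein inter-alpha-inhibitor onto the polymer, and the pentraxin Ptx3 binds these chains and so holds the expanded cumulus matrix together. Cd44 is the main cell surface receptor of hyaluronan. Hyal2 cuts long hyaluronan at the cell surface and Hyal1 cuts the fragments further in lysosomes.

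The libraries held 18677194 to 19170515 reads after rounding. The labelled cell type was checked against its markers. Of 12 granulosa genes, 10 had a mean of at least 1 TPM (a read level corrected for the length of the transcript and the depth of the library). Of all genes, 71.4% had a mean of at least 1 TPM. Summed over the 12 granulosa genes, the level was 3188 TPM in ATR 1, 2889 in ATR 2 and 2783 in ATR 3. Of these sums, Gja1 made up 2036, 1863 and 1821 TPM. Cyp19a1 and Amh, which are hallmarks of granulosa cells of growing follicles, had 4 and 3 reads in all after rounding. Markers of surface epithelium (8 of 12 at 1 TPM or more, summed level 2267 to 2388 TPM), of stromal fibroblasts (9 of 10, 3218 to 3724 TPM) and of smooth muscle (7 of 7, 16342 to 17684 TPM) were present beside them. Leukocyte markers summed to 96.95 to 122 TPM, endothelial markers to 4.13 to 4.65 TPM and oocyte markers to 1.21 to 1.52 TPM. In bulk RNA, fewer cells of a type and less RNA per cell cannot be told apart.

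Upstream sequence is shown for 4 genes, namely the most abundant gene of the set (Tnfaip6), its partner in the cumulus matrix (Ptx3), and the neighbouring hyaluronidases that differed in level and in how their reads were counted (Hyal1 and Hyal2). Each line gives the 250 bases before the start site in RefSeq, build GRCr8, from 5′ to 3′ in the direction of the gene, with motif matches in capitals. RefSeq upstream windows were matched for 6 of the 8 genes, not for Has2 and Has3.
Tnfaip6 (chr3:56911148-56911397, + strand): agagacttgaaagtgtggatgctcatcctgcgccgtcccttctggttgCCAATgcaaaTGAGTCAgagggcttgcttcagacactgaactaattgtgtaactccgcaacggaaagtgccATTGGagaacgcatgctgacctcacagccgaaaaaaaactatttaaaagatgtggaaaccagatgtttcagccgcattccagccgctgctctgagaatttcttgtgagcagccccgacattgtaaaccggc
Ptx3 (chr2:152797313-152797562, + strand): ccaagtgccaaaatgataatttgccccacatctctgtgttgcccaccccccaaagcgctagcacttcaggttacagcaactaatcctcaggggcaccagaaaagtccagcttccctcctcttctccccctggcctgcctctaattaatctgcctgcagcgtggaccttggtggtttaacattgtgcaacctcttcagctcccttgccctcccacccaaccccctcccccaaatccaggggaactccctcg
Hyal1 (chr8:117129061-117129310, + strand): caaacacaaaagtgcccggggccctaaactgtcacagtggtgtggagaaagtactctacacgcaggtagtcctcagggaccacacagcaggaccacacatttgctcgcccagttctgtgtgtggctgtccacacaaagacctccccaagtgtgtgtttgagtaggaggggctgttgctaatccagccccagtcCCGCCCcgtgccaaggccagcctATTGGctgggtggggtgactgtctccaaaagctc
Hyal2 (chr8:117121552-117121801, + strand): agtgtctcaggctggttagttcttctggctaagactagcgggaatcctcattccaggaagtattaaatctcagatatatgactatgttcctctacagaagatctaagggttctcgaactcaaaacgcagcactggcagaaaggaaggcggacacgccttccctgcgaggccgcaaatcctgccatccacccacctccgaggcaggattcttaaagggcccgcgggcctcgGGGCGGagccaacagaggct

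The motifs searched, on both strands, were the TATA box (TATAAA), the CCAAT box (CCAAT), the GC box (GGGCGG), the cAMP response element (TGACGTCA) and the AP-1 site (TGANTCA). Of 33469 windows of this length over all RefSeq genes, 12.9% held the first, 34.0% the second, 30.5% the third, 1.59% the fourth and 6.34% the last. The Tnfaip6 window held CCAAT boxes at 202 to 198 and at 131 to 127 bases before the start and an AP-1 site at 192 to 186. The Hyal1 window held a GC box at 57 to 52 and a CCAAT box at 34 to 30, and the Hyal2 window a GC box at 20 to 15. None of these motifs was found in the Ptx3 window or in the Cd44 window, which is not shown. The Has1 window, not shown, held the cAMP response element at 83 to 76 bases before its start. These matches do not overlap each other, and they describe letters, not binding.

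The synthases were the least abundant members, and Has2 made up most of their RNA. Has2 stood at 5.10 TPM in ATR 1, 6.53 in ATR 2 and 6.73 in ATR 3, a mean of 6.12 ± 0.889 TPM (SD, n = 3), from 191, 246 and 259 reads. Its level was lowest in ATR 1 and close in the other libraries. Has1 stood at 0.65 TPM in ATR 1, 0.37 in ATR 2 and 0.79 in ATR 3, from 12, 7 and 15 reads. Has3 stood at 0.23, 0.18 and 0.24 TPM, from 12, 9 and 18 reads. In each library Has2 exceeded Has1, by 7.85 to 17.6 times, and Has1 exceeded Has3 in TPM, by 2.06 to 3.29 times. Has2 held 85.3%, 92.2% and 86.7% of the summed synthase TPM of 5.98, 7.08 and 7.76, Has1 held 10.9%, 5.23% and 10.2%, and Has3 held the rest.

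The order of Has1 and Has3 rests on transcript length, since their read numbers were alike or higher for Has3. For Has3 the reads behind 1 TPM also differed between libraries, at 52.2 in ATR 1, 50 in ATR 2 and 75.0 in ATR 3. Its TPM in ATR 3 was therefore close to that in ATR 1 although it had 1.501 times the scaled reads (95% interval 0.684 to 3.42). No difference of Has1 or Has3 between the libraries was detected, and the intervals were wide. The ratio of ATR 3 to ATR 2 was 2.11 for Has1 (0.810 to 6.12) and 1.97 for Has3 (0.840 to 4.98). For Has2, RefSeq GRCr8 places a long noncoding RNA, LOC108351495, in overlap with the gene. No strand-marking step is described, so reads of such partners cannot be told apart from those of Has2.

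**Figure D1:**
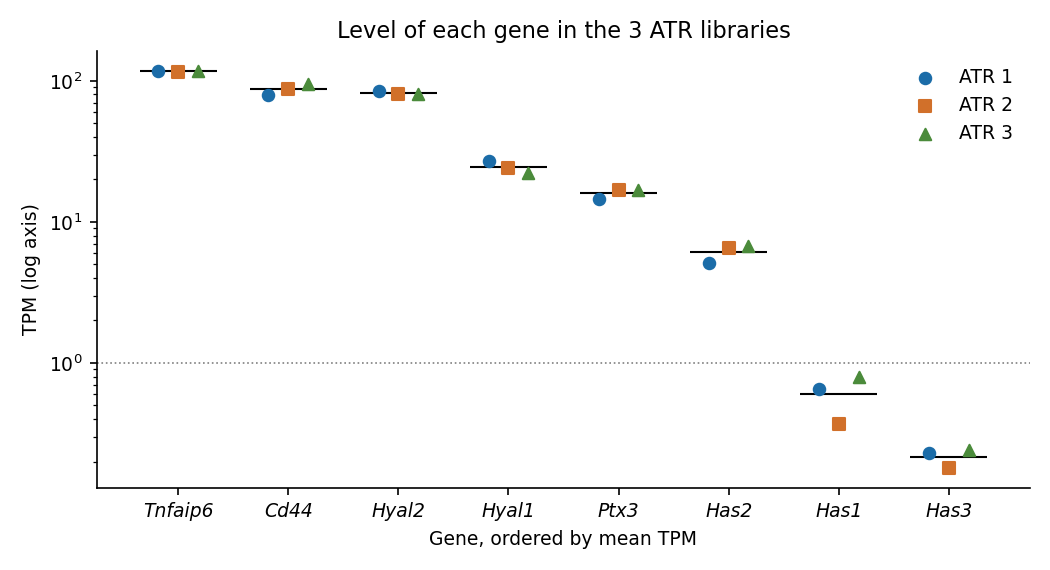
TPM of each gene (log axis) in ATR 1 (circles), ATR 2 (squares) and ATR 3 (triangles), with the mean as a line and 1 TPM as a dotted line. Tnfaip6, Cd44 and Hyal2 lie highest, at means of 117, 87.5 and 82.1 TPM, and Has1 and Has3 lie below 1 TPM in every library.

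The 2 organisers of the cumulus matrix differed in level and both were well above the synthases. Tnfaip6 was the most abundant of the 8 genes, at 118 TPM in ATR 1, 115 in ATR 2 and 117 in ATR 3, from 1414, 1384 and 1443 reads, and it ranked 1584 among all genes by mean TPM. Its levels were nearly the same in every library, with a coefficient of variation of 1.40%, against a median of 6.16% over the 12518 genes at 1 TPM or more. Most of those genes lie at lower levels, where counting noise alone makes this measure larger, so the comparison is not matched for level. Ptx3 stood at 14.5, 16.8 and 16.9 TPM from 247, 287 and 296 reads, lowest in ATR 1, and ranked 7406. Tnfaip6 exceeded Ptx3 by 8.14 times in ATR 1, 6.86 times in ATR 2 and 6.93 times in ATR 3. RefSeq GRCr8 places Ptx3 inside the span of Veph1, whose reads, 172, 151 and 178, were whole numbers like those of Ptx3.

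Cd44, the receptor, stood at 79.3 TPM in ATR 1, 88.1 in ATR 2 and 95.2 in ATR 3, from 2917, 3260 and 3599 reads. It was lowest in ATR 1 and highest in ATR 3, and its mean was 87.5 ± 7.97 TPM (SD, n = 3). Hyal2, the surface hyaluronidase, stood at 84.95, 81.2 and 80.2 TPM from 1412, 1356 and 1369 reads, with a mean of 82.1 ± 2.51 TPM (SD, n = 3). Cd44 and Hyal2 were the only neighbours in the order of levels whose library ranges overlapped, and Cd44 was the higher in 2 of 3 libraries. Hyal1, the lysosomal hyaluronidase, stood at 26.95, 24.2 and 22.4 TPM, highest in ATR 1 and lowest in ATR 3. Hyal2 exceeded Hyal1 by 3.15, 3.35 and 3.59 times, and the hyaluronidases together exceeded the synthases together by 18.7, 14.9 and 13.2 times in ATR 1, ATR 2 and ATR 3.

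The level of Hyal1 depends on how reads were divided between overlapping genes. Its estimated reads were not whole numbers, at 660.59, 587.78 and 552.34, unlike those of the other 7 members. RefSeq GRCr8 places Naa80 (an actin acetyltransferase, listed as Nat6 in the table) and Hyal3, a further hyaluronidase, in overlap with Hyal1 on chromosome 8. Nat6 had 364.48, 357.58 and 338.75 reads and Hyal3 had 81.93, 117.64 and 105.92. The 3 genes summed to 1107, 1063 and 997 reads in ATR 1, ATR 2 and ATR 3, within 0.01 of a whole number in each library. Hyal1 held 59.7% of the sum in ATR 1, 55.3% in ATR 2 and 55.4% in ATR 3. Where reads were divided among these genes, the single level of Hyal1 is uncertain, as is that of Hyal3 at 6.67, 9.53 and 8.40 TPM. Hyal2, whose counts were whole, lies next to this group and outside the overlap.

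**Figure D2:**
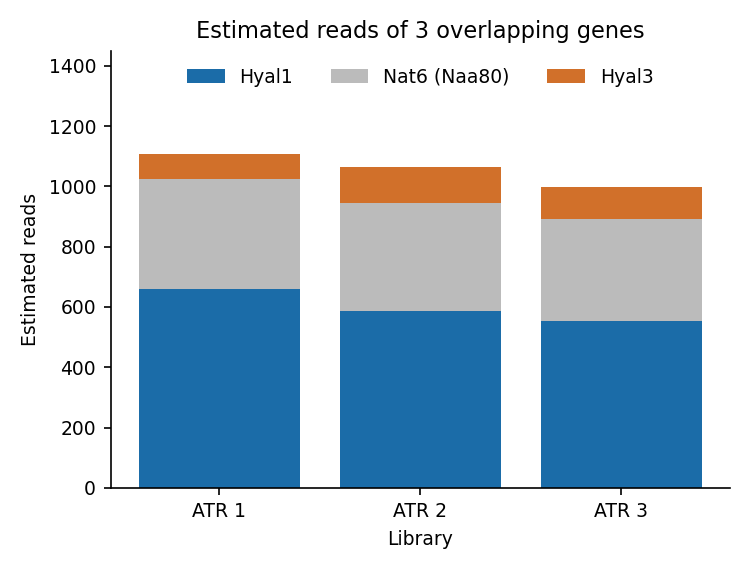
Estimated reads (linear axis from 0) of Hyal1, Nat6 and Hyal3, stacked, in each ATR library. The stacks reach 1107, 1063 and 997 reads, and the Hyal1 part is 660.59 reads in ATR 1, 587.78 in ATR 2 and 552.34 in ATR 3.

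Of the 8 genes, 3 varied between the libraries beyond counting noise, namely Has2, Cd44 and Hyal1, in a chi-square test of reads with Benjamini-Hochberg adjustment over 13309 genes. Over all genes tested the share was 23.2%, so this count is a description of the members and no more. Has2 had an adjusted p of 0.0162, and its scaled reads in ATR 3 were 1.36 times those in ATR 1 (95% interval 1.12 to 1.64) and 1.04 times those in ATR 2 (0.867 to 1.24). Its call was lost without ATR 1, with an adjusted p of 0.870, and its adjusted p ranged from 0.0129 to 0.870 over the alternatives. Cd44 had an adjusted p of 6.83e-15 and a ratio of ATR 3 to ATR 1 of 1.23 (1.18 to 1.297), with ATR 3 above ATR 2 by 1.09 times (1.04 to 1.14). It passed the threshold with each library left out, with adjusted p from 1.45e-15 to 0.00780 over all alternatives.

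Hyal1 ran the other way. Its adjusted p was 0.0347 and its ratio of ATR 3 to ATR 1 was 0.836 (95% interval 0.745 to 0.937). With the reads of Hyal1, Nat6 and Hyal3 summed, an alternative chosen after seeing the data, the adjusted p was 0.145. It was 0.473 without ATR 1 and 0.239 without ATR 3, within a range over all alternatives of 0.0169 to 0.473. The other 5 genes did not pass. Their adjusted p was 0.858 for Tnfaip6, 0.823 for Hyal2, 0.193 for Ptx3, 0.448 for Has1 and 0.402 for Has3. For Ptx3 the ratio of ATR 3 to ATR 1 was 1.199, with an interval of 1.01 to 1.43, and for Tnfaip6 it was 1.02, with an interval of 0.948 to 1.10. CPM is the read count scaled to library size. The median SD of log2(CPM + 0.5) was 0.13 over the 6 members at a mean of 1 CPM or more. It was 0.08 over all 12591 such genes. The SD was 0.020 for Tnfaip6 and 0.023 for Hyal2, and from 0.128 (Hyal1) to 0.231 (Has2) for the others. The medians were not matched for level.

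**Figure D3:**
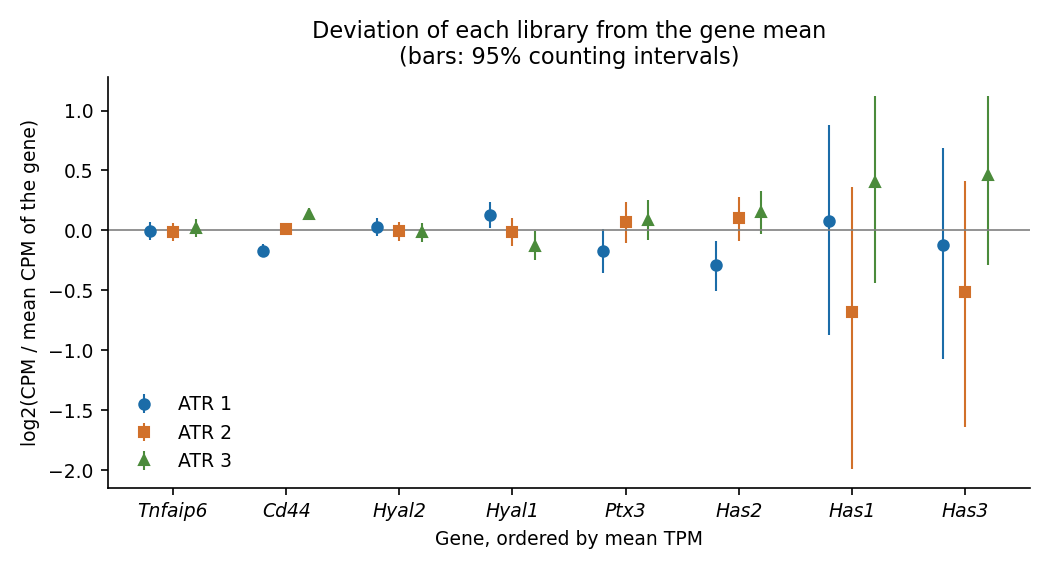
Log2 ratio of each library's CPM to the mean CPM of the gene, for ATR 1 (circles), ATR 2 (squares) and ATR 3 (triangles), with exact Poisson 95% intervals that cover counting error only. The intervals of Cd44 in ATR 1 and ATR 3 lie on opposite sides of 0, whereas those of Has1 and Has3 span it in every library.

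Summed levels of cell type markers also differed between the same libraries, with single markers of a type going both ways. Stromal fibroblast markers summed to 3218 TPM in ATR 1, 3724 in ATR 2 and 3651 in ATR 3, of which Col1a1 made up 2596, 3062 and 2996.5 TPM. Of the 9 at a mean of 1 CPM or more, 6 were lowest in ATR 1, as Has2 and Cd44 were. The other 3, Dcn, Col14a1 and Ogn, were highest there. Leukocyte markers also summed lowest in ATR 1, to 96.95 TPM, against 122 in ATR 2 and 119.9 in ATR 3. Of these sums, Lyz2 made up 60.2, 78.6 and 83.2 TPM. Of 6 at a mean of 1 CPM or more, 4 were lowest in ATR 1. Only Lyz2 passed the test for spread among 7 leukocyte markers tested, where 23.2% of all genes tested passed. The stromal marker Tcf21, below a mean of 1 CPM, had no reads in ATR 1, and the pan-leukocyte marker Ptprc was below 1 TPM in every library. Of 9 granulosa markers at a mean of 1 CPM or more, 7 were lowest in ATR 3 and 5 were highest in ATR 1, as was Hyal1. Smooth muscle markers summed to 17684 TPM in ATR 1, 16506 in ATR 2 and 16342 in ATR 3, mostly from Tagln and Acta2. Of these 7 markers, 4 were highest and 3 lowest in ATR 1. Surface epithelium markers summed to 2388, 2267 and 2331 TPM. Of 10 at a mean of 1 CPM or more, 4 were highest and 4 lowest in ATR 1. The part of these markers in the spread of Has2, Cd44 and Hyal1 was not tested.

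The genes nearest in pattern to each varying member were found by the Euclidean distance of centred log2(CPM + 0.5) over the 3 libraries, among 2687 genes that passed the same test and averaged 5 CPM or more. With 3 libraries and so many genes, close neighbours occur for most patterns. Nearest to Has2 were the cystine transporter Slc7a11 at a distance of 0.0058, Igsf3 at 0.012 and the cationic amino acid transporter Slc7a1 at 0.018. In TPM, Slc7a11 was nearly level, at 2.86, 2.95 and 3.12 in ATR 1, ATR 2 and ATR 3, whereas Slc7a1 stood at 12.2, 15.3 and 15.7. Nearest to Cd44 were Fbn1 (fibrillin-1) at 0.010, Efhd2 at 0.020 and Txnl4a at 0.021. Nearest to Hyal1 were the pseudokinase Trib2 at 0.0060, the AMP-activated kinase subunit Prkaa2 at 0.0089 and Lrig1 at 0.012.

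The enzymes that supply the sugar precursors of hyaluronan were all expressed. All 12 genes of this list reached 1 TPM. Their median level was 67.1 TPM, against 10.1 TPM over all genes. Its most abundant genes were Nme1 at 294 ± 6.59, the isomerase Gpi at 288 ± 2.24, hexokinase Hk1 at 135 ± 5.69 and Gfpt1, the first enzyme of the hexosamine pathway, at 113 ± 4.66 TPM (SD, n = 3). Ugdh, which makes the UDP-glucuronic acid used by the synthases, stood at 93.6 TPM in ATR 1, 106 in ATR 2 and 109 in ATR 3, lowest in ATR 1 as Has2 was. Of the 12 genes, all tested, 8 varied beyond counting noise, where 23.2% of all genes tested did. Of these 8, 4 were highest in ATR 2, 3 in ATR 3 and 1 in ATR 1. The largest SDs of log2(CPM + 0.5) among these were those of Uap1, which makes UDP-N-acetylglucosamine, at 44.4 TPM in ATR 1, 89.7 in ATR 2 and 58.4 in ATR 3, of Gfpt2 at 5.09, 10.5 and 7.95 TPM, and of Hk2 at 13.5, 16.5 and 18.2 TPM. The counts of Uap1 were not whole, so its reads may be shared with another gene.

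The proteins that fill or tie the hyaluronan matrix split into present and nearly absent genes. Of 8 hyaluronan-binding proteoglycans and link proteins, 3 reached 1 TPM: Vcan (versican) at 120 ± 10.2, Acan (aggrecan) at 59.6 ± 46.3 and the link protein Hapln3 at 24.4 ± 0.293 TPM (SD, n = 3). Acan was the most variable, with 15.99 TPM in ATR 1, 108 in ATR 2 and 54.8 in ATR 3. Hapln1, the link protein of cartilage, had 3, 9 and 35 reads. Acan, Vcan and Hapln1 passed the test, all lowest in ATR 1, among 4 genes tested, where 23.2% of all genes tested passed. Hapln2 had 9, 13 and 7 reads, Hapln4 had 1, 3 and 3, and Bcan and Ncan each had 1 read, in ATR 2.

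Inter-alpha-inhibitor is secreted into serum by the liver, and Tnfaip6 transfers its heavy chains. Of 6 genes listed under the family of its heavy and light chains, the 4 measured were low or close to absent as RNA. A place in this list does not make Itih4 or Itih5 a chain of the serum protein itself. Itih3 had 1 read in all, Itih4 had 3 and Ambp, the light chain precursor, had 2. Itih5, listed under the symbol LOC684327 and matched by its identifier, stood at 1.89 TPM in ATR 1, 1.35 in ATR 2 and 1.82 in ATR 3. Itih1 and Itih2 were not found by symbol or identifier, so the levels of these heavy chains are not known here. None of the 4 measured genes passed the test, and 1 had the 30 reads it needs.

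The other receptors of hyaluronan were far lower than Cd44. Of 7 genes, 5 reached 1 TPM, and the median level was 2.24 TPM. The highest were Layn (layilin) at 13.8 ± 1.91, Hmmr, which also acts on the mitotic spindle, at 12.7 ± 2.53, Tlr2 at 4.16 ± 0.495 and Tlr4 at 2.24 ± 0.125 TPM (SD, n = 3). Hmmr alone passed the test among 5 tested (23.2% of all genes tested passed), with 12.7 TPM in ATR 1, 10.1 in ATR 2 and 15.2 in ATR 3. Layn stood at 12.3, 15.9 and 13.1 TPM in the same order, above Hmmr only in ATR 2. Its counts in ATR 1 and ATR 3 were not whole, so its reads may be shared with another gene. Lyve1 and Stab2, receptors of lymphatic and sinusoidal endothelium, had 10 and 8 reads in all. Of the 6 genes for proteins that link Cd44 to the cytoskeleton, all reached 1 TPM. Of these 6, 3 passed the test (Ezr, Msn and Ank3), where 23.2% of all genes tested passed. Each had its highest CPM in ATR 3, but Ank3 was almost as high in ATR 1 (8.97 against 9.08 CPM). Ezr and Ank3 were lowest in ATR 2, and only Msn was lowest in ATR 1, as Cd44 was. Ezr (ezrin) stood at 729 ± 15.1, Msn (moesin) at 437 ± 30.7, Rdx (radixin) at 72.4 ± 1.86 and Nf2 (merlin) at 55.1 ± 1.27 TPM (SD, n = 3). Msn stood at 414 TPM in ATR 1, 424 in ATR 2 and 472 in ATR 3. The membrane adaptor Ank3 (ankyrin-G) stood at 2.54, 1.65 and 2.51 TPM in the same order. The counts of Ezr and Msn were not whole, so their levels may be divided with similar genes.

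Breakdown genes beside Hyal1 and Hyal2 were expressed in all 6 measured cases, with a median of 67.8 TPM. The lysosomal enzymes Hexa and Gusb, which take part in trimming hyaluronan fragments, stood at 390 ± 13.7 and 54.0 ± 2.25 TPM (SD, n = 3). Cemip, which binds hyaluronan and drives its breakdown outside lysosomes, stood at 89.5 TPM in ATR 1, 67.4 in ATR 2 and 88.1 in ATR 3. It was lowest in ATR 2 and was the only 1 of the 6 genes to pass the test, which 23.2% of all genes tested passed. Its level was near that of Hyal2. Hyal4, Hyal5, Hyal6 and Spam1 were not found by symbol or identifier.

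The genes listed upstream of cumulus expansion were present in part. The list is broader than signals alone and holds, for example, the protease Adamts1. Of 22 genes, 18 reached 1 TPM, and the median level was 14.4 TPM. Of 18 tested, 10 passed the test, where 23.2% of all genes tested passed. Of these 10, 5 were highest in ATR 2, 3 in ATR 3 and 2 in ATR 1. The most abundant were Rgs2 at 1198 ± 114, the protease Adamts1, which cuts versican, at 230 ± 17.3, Star at 97.3 ± 17.8 and the transcription factor Cebpb at 86.0 ± 12.7 TPM (SD, n = 3). The largest SDs of log2(CPM + 0.5) among those past the test were those of Star, at 77.1 TPM in ATR 1, 105 in ATR 2 and 110.4 in ATR 3, of Ptgs2, the cyclooxygenase that makes the prostaglandin signal, at 9.73, 13.8 and 10.8 TPM, and of Cebpb, at 76.9, 101 and 80.6 TPM. All 3 were lowest in ATR 1. Areg stood at 33.9 ± 1.62, Btc at 29.0 ± 2.05, Egfr at 8.31 ± 0.372 and Ereg at 7.99 ± 2.03 TPM (SD, n = 3). These genes did not pass the test. The luteinizing hormone receptor Lhcgr had 5, 3 and 4 reads and the progesterone receptor Pgr had 4, 6 and 10. The oocyte factors Gdf9 and Bmp15, which act on cumulus cells, had 1 and 4 reads in all.

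**Figure D4:**
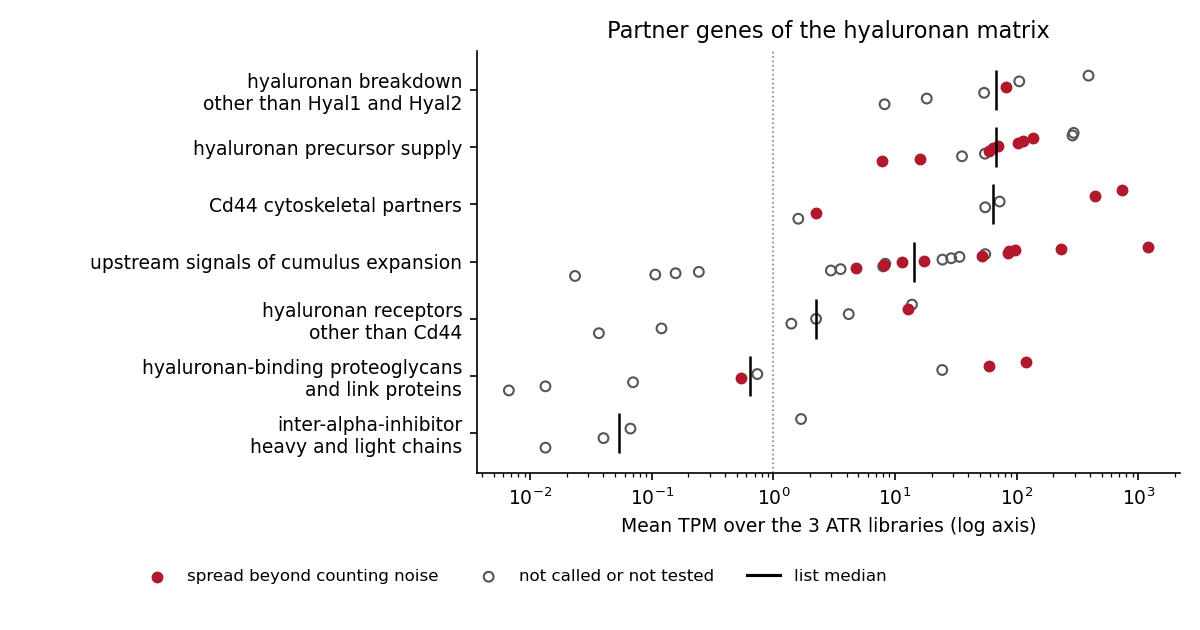
Mean TPM over the ATR libraries (log axis) of each measured partner gene, by list, with the list median as a line and 1 TPM as a dotted line. Filled points passed the test for spread beyond counting noise. The medians run from 67.8 TPM for the breakdown genes to 0.053 TPM for the inter-alpha-inhibitor family.

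Over the 7 partner lists, 65 genes were measured, 51 reached 1 TPM and 26 of the 52 tested varied beyond counting noise, against 23.2% of all genes tested. Of all genes, 71.4% reached 1 TPM. The median level was 17.4 TPM over these partner genes and 10.1 TPM over all genes. The test detects smaller differences in genes with more reads, and the shares were not matched for level. They describe these lists, which were chosen with earlier results of these data known, and no more.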

How the data were processed

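For 17525 genes and 3 ATR libraries, the authors deposited a TPM value and a read count that need not be whole, here called an estimated count, per the file headers. Tools named in the submitters' processing notes are HISAT2 2.2.1, StringTie 2.1.5 and fastp 0.20.1, with the builds Rnor_6.0 and GRCm38. Which step used which, how reads were divided between genes and whether strand was used were not stated. The Control libraries are not analysed here, and no contrast of ATR with Control was run.

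Estimated counts were rounded to whole numbers and scaled with TMM in edgeR 4.0.16 (R 4.3.3), giving CPM, the count scaled to library size. Each gene with at least 30 reads in all was tested for spread between libraries beyond counting noise, by a chi-square test of its counts against the scaled library sizes with Benjamini-Hochberg adjustment over all 13309 genes tested and a threshold of 0.05. The test compares libraries, not conditions, and takes reads without molecular identifiers as independent. It was also run on simulated counts, which cannot show whether the reads of these libraries are independent. Ratios of reads have exact 95% intervals by the Clopper-Pearson method, and single libraries carry exact Poisson 95% intervals in the plot of deviations. Both cover counting error only. SDs on the log2 scale are of log2(CPM + 0.5). Alternatives used DESeq2 1.42.0 size factors, library totals, other read minimums, whole counts alone and libraries left out.

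Partner and marker lists were matched by symbol, or by identifier through a rat RefSeq table of assembly GRCr8. The members and lists were chosen with earlier results of these data known. All 8 members are named. In each partner list the rule names up to 4 genes of highest mean TPM, up to 3 genes of largest SD among those past the test, and genes under 30 reads in all. A further gene that this rule names is not reported here. For each member past the test it names 3 genes of nearest pattern. Steps outside R used Python 3.11.15 with pandas 2.3.3, numpy 2.4.6, scipy 1.17.1 and matplotlib 3.10.9.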

Additional observations from a re-analysis of the deposited data

How the results depend on the processing

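No paired analysis was possible because 1 group alone has values, and planned settings of a contrast between groups were not run. The number of genes varying beyond counting noise was 3087. With a library removed it ranged from 1526 (11.9% of 12866 genes tested, ATR 1 removed) to 2230 (17.3% of 12868, ATR 3 removed). It was 1871 (14.6% of 12848) when ATR 2 was removed. These runs had fewer libraries and reads, and why the numbers differ was not tested. Under the other scalings, read minimums and whole counts alone the number of genes lay between 2125 and 3167. Cd44 passed the threshold in every alternative run, whereas the call of Has2 was lost without ATR 1 and that of Hyal1 without ATR 1, without ATR 3 and with overlapping genes summed. Tnfaip6, Ptx3 and Hyal2 passed in none of the alternatives run. Has1 and Has3 passed in none of those in which they kept the 30 reads needed, which leaves out every removal of a library for Has1 and removal of ATR 1 or ATR 3 for Has3. The mean ratio of Has1 to Has2 was 0.100 and became 0.228 with 1 TPM added to both, and that of Has3 to Has2 was 0.036 and became 0.173, since an added 1 TPM exceeds the level of Has1 and Has3. The other ratios moved by less than 1 SD with 1 TPM added to both. The coefficient of variation of Has3 was 14.8% in TPM and 34.7% in CPM, and that of Hyal2 was 3.05% and 1.60%. At 5 TPM in place of 1 TPM, 2 other hyaluronan receptors and 0 genes of the inter-alpha-inhibitor family qualified. At 0.5 TPM, 5 proteoglycans and link proteins did. The other list counts stayed within 1.5 times. Has1 and Has3 had 34 and 39 reads in all, which leaves wide intervals on their ratios between libraries.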
